A study of Danio rerio with 5 samples.

Results

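Translation initiation factor genes were followed in zebrafish (Danio rerio), with RNA from the whole embryo collected 4 hours after fertilisation. The members were the genes whose symbol in the deposited TPM tables, written in lower case, begins with eif and a digit, which gave 67 of 32520 genes. The pool of 10 guides (1 library) carried a guide to szrd1 and 9 others, and the pool of 25 guides (1 library) carried the szrd1 guide and 24 others. Both are labelled as knockdowns with RfxCas13d, a CRISPR nuclease that cuts RNA. The 3 control libraries, replicates 1 to 3, are labelled as RfxCas13d controls, so the nuclease is shared by all groups. The targets of the other guides, the strain, and whether the controls came from separate clutches are not stated in the labels. The p-values therefore measure only the spread between these libraries, which may be technical.

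Initiation factors bring the ribosome to the start codon. In cap-dependent initiation, eIF4E binds the mRNA cap, eIF4G bridges it to the small ribosomal subunit through eIF3, and the helicase eIF4A unwinds the leader. eIF2 delivers the initiator tRNA, eIF1 and eIF1A keep the ribosome scanning, and eIF5 and eIF5B lead to the joining of the large subunit. The 4E-BP proteins compete with eIF4G for eIF4E and so restrain translation. Before its genome is active an embryo depends on stored maternal mRNA, and much of its gene control is at translation. The eIF4E type 1B protein is known from vertebrate oocytes and early embryos, which is why its gene is set apart here.

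Gene counts numbered 6872714 and 6528043 in the pools of 10 and 25, against 13104114, 14179837 and 5283761 in control replicates 1 to 3. The members took 44960 to 132364 of them per library. Libraries were prepared at 1/8 of the kit's volume for both pools and control replicate 3, and at 1/4 for control replicates 1 and 2. Depth divided the libraries in the same way as volume. Reads that found no place in the genome made up 20.97% and 13.8% in the pools of 10 and 25, against 13.1%, 16% and 44% in control replicates 1 to 3. As the check of the targeted transcript, szrd1 stood at 41.3 and 45.6 CPM in the pools of 10 and 25, against 221, 278 and 311 CPM in the controls (CPM is a read count normalised for library size). The edgeR test of both pools did not call it (log2 fold change -2.63, adjusted p = 0.232), whereas DESeq2 did (adjusted p = 4.6e-08). The edgeR fit with a term for library volume also called it (log2 fold change -2.84, edgeR adjusted p = 0.0209). That fit sets the pools against control replicate 3 alone. An uncalled gene in an edgeR fit is thus not shown to be unchanged. Of the marker lists, nanog, pou5f3 and sox19b summed to 2070 and 2120 TPM in the pools of 10 and 25, against 1001, 1059 and 2285 TPM in control replicates 1 to 3. The pools overlapped with the controls for nanog and pou5f3. For sox19b both pools were above every control, at 359 and 352 TPM, against 116, 122 and 169 TPM. Of 10 markers of later cell types, 7 stayed under 1 TPM throughout, 5 of them with no count. Enveloping layer markers summed to 1168 and 1203 TPM in the pools of 10 and 25, against 366, 1371 and 1411 TPM in the controls. Most of each sum was krt18a.1. In both pools krt5, krt8 and cldne lay above control replicate 1 but below control replicates 2 and 3. krt5 had 1.56 and 3.23 TPM in the pools, against 0.32, 12.2 and 31.8 TPM in the controls. For krt4 and krt18a.1, 1 pool lay between control replicates 2 and 3. Both pools lay below every control for the summed genome activation genes, at 340.4 and 347 TPM in the pools, against 415, 573 and 448 TPM in the controls. They also did for the yolk syncytial layer list, at 233 and 246 TPM, against 297, 392 and 304 TPM. mxtx2, in both lists, made up most of each. Gene by gene, only mxtx2 and vox lay below every control in both pools. The others, tbxta, vent, hnf4a, slc26a1 and apoa2, overlapped. Of these, tbxta, vent and slc26a1 were above control replicates 1 and 2 in both pools. The part of these markers in the members' values was not tested. In bulk RNA, fewer cells of a type and less RNA per cell cannot be told apart.

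Summed over the members, the pools of 10 and 25 had 9086 and 9163 TPM, against 9801, 7035 and 8276 TPM in control replicates 1 to 3 (TPM is a level scaled for transcript length and library total). The pools lay inside the range of the controls, and initiation factor transcripts took between 0.704% and 0.980% of the TPM of each library. In the controls 25 members averaged at least 100 TPM, 35 lay between 10 and 100 TPM and 7 were under 10 TPM. The median member stood at 62.4 TPM, against 11.5 TPM for all genes tested. The highest was eif1b, an eIF1 gene that guards start codon choice, with 1044 and 766 TPM in the pools of 10 and 25, against 1858, 719 and 609 TPM in the controls. Next by mean came eif6, which keeps the large ribosomal subunit from joining too early, at 573 ± 147 TPM in the controls (SD, n = 3). The 4E-BP genes eif4ebp1 and eif4ebp3l followed at 491 ± 147 and 461 ± 186 TPM, and the helicase gene eif4a1a at 457 ± 246 TPM. These neighbours differed by less than their spread between controls, so their order is not resolved. At the low end were eif3bb and an entry eif3j, both under 1 TPM on average. The entry eif3j had no count in any library and was the 1 member that failed the filter on low counts, although the deposited TPM lists it at 1.04 in the pool of 25 and 1.02 in control replicate 2.

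**Figure D1:**
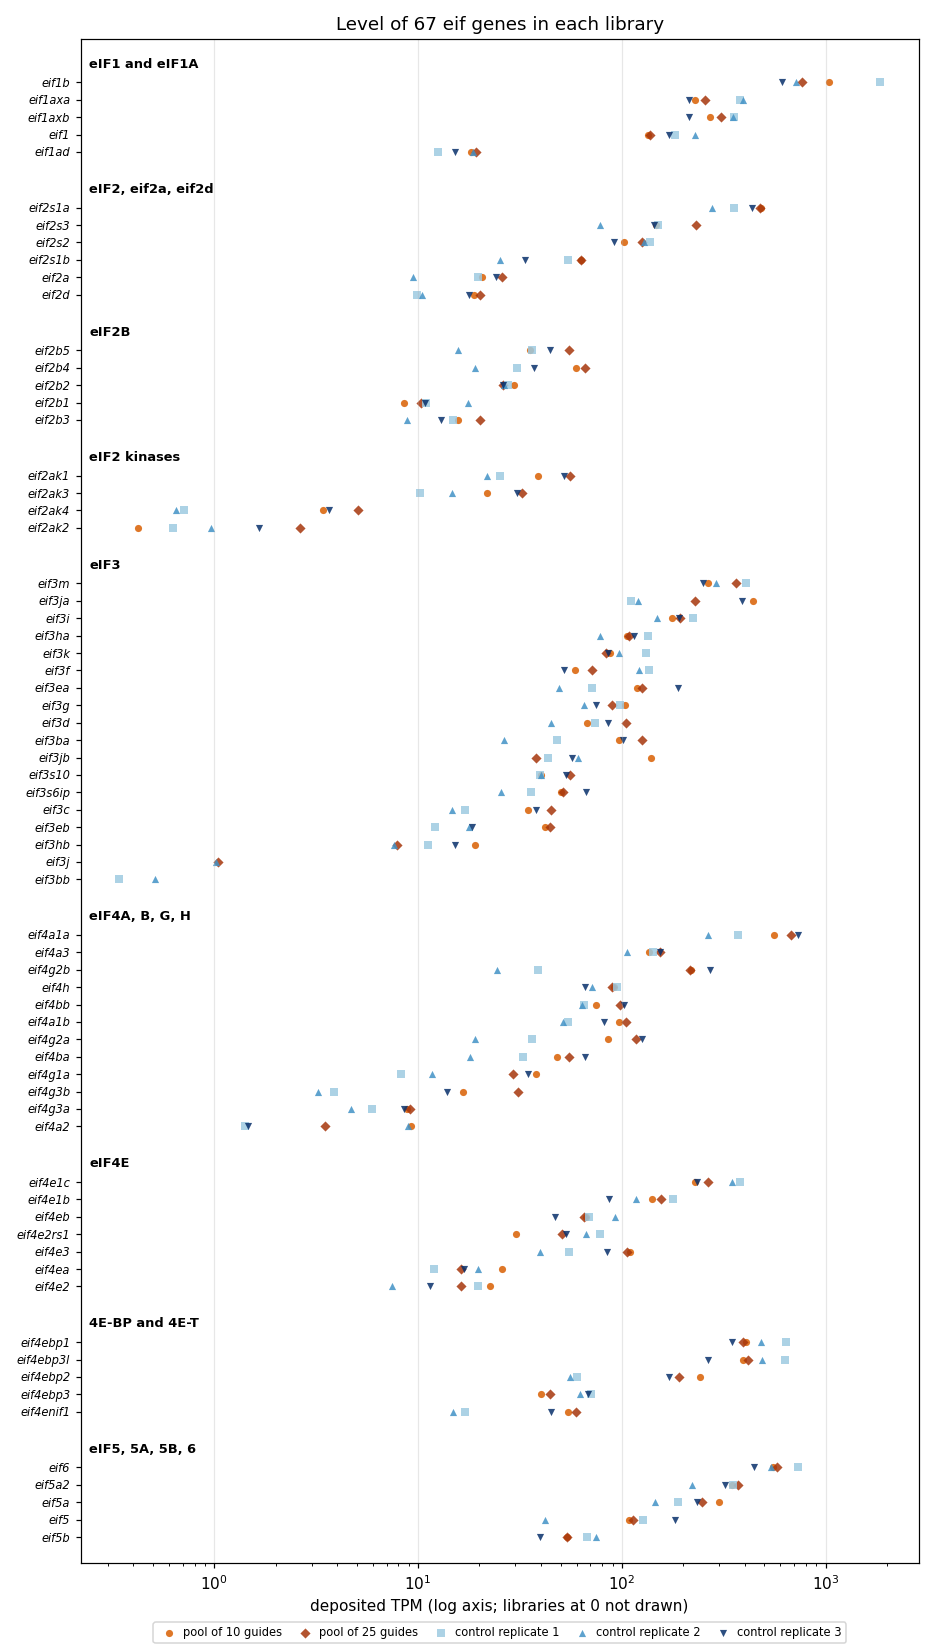
Deposited TPM (log axis) of the members in each of the 5 libraries, grouped by role and ordered by the mean of the controls; each point is 1 library and values of 0 are not drawn. The levels run from eif1b, at 609 to 1858 TPM, down to eif3bb, at 0.34 and 0.51 TPM in control replicates 1 and 2.

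No initiation factor gene passed the edgeR or DESeq2 test between both pools and the controls. edgeR's quasi-likelihood test with Benjamini-Hochberg adjustment called 0 of 66 members, beside 0% of 16445 genes, and the smallest adjusted p of a member was 0.464. DESeq2 called 0 of 65 members, beside 0.729% of the genes to which it gave an adjusted p. At an unadjusted edgeR p under 0.05 there were 4 members lower, beside 6.66% of all genes, and 2 higher, beside 3.97%. The median log2 fold change was -0.11 over the members and -0.080 over all genes, with 40 members (60.6%) below 0, beside 53.4% of all genes, and 26 above. Both pools lay below every control for 8 members, or 12.1%, beside 14.9% of all genes, and above every control for 7, or 10.6%, beside 14.6%. At least 2-fold outside the controls there were 0 members below, beside 2.21% of all genes, and 0 above, beside 1.57%. The members' shares called or outside the controls were thus at or under the background, while their share below 0 was above it. The 95% interval of the fold change stayed within 2-fold either way for 12 members, and for the others a 2-fold change in at least 1 direction lay inside it.

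Control replicate 3 decided the calls. It lay at least 2-fold below both other controls for 12 members (18.2%), beside 19.3% of all genes. For 5 members (7.58%) it lay at least 2-fold above them, beside 14.5%. Without it, edgeR called 16 members (24.2%) lower, beside 12.8% of all genes, and 8 (12.1%) higher, beside 11.9%. The members' share was thus above the background for lower and near it for higher. The median member also had a higher level in the controls than the median gene tested (62.4 against 11.5 TPM). The part of level in these shares was not tested. In the fit without control replicate 3 the pools were compared only with libraries of the other volume. For all 16 and all 8 called, control replicate 3 lay on the same side of control replicates 1 and 2 as the pools did. It did so for 98.0% of all genes called lower and 96.5% of those called higher. Both differences take control replicates 1 and 2 as their reference, so part of this agreement is built in. Members outside the controls numbered 28 below (42.4%, beside 33.8% of all genes) and 15 above (22.7%, beside 30.3%) without control replicate 3. They numbered 8 (12.1%, beside 19.6%) and 11 (16.7%, beside 18.9%) without control replicate 1. Without control replicate 2 they numbered 13 (20%, beside 17.8%) and 9 (13.8%, beside 17.7%). Without the pool of 10 they numbered 14 (21.2%, beside 25% of all genes) and 15 (22.7%, beside 24.3%). Without the pool of 25 they numbered 13 (19.7%, beside 24.4%) and 9 (13.6%, beside 22.7%). With fewer libraries these counts grow for all genes as well. With a term for library volume, which sets the pools against control replicate 3 alone, 0 members were called, beside 0.0608% of all genes. At an unadjusted edgeR p under 0.05 that fit had 0 members lower, beside 3.53% of all genes, and 2 higher, eif3eb and eif4ebp3l, beside 5.58%. The median over the members was 0.12 with the term, beside 0.024 over all genes. Library volume, depth and any other difference between control replicate 3 and the other controls cannot be told apart.

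Control replicates 1 and 2 also differed. Control replicate 1 was at least 2-fold above control replicate 2 for 5 members, beside 9.08% of all genes. These were eif1b, eif5, eif2s1b, eif2b5 and eif4e2. It was at least 2-fold below it for 2, eif4a2 and eif3bb, beside 14.2% of all genes.

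**Figure D2:**
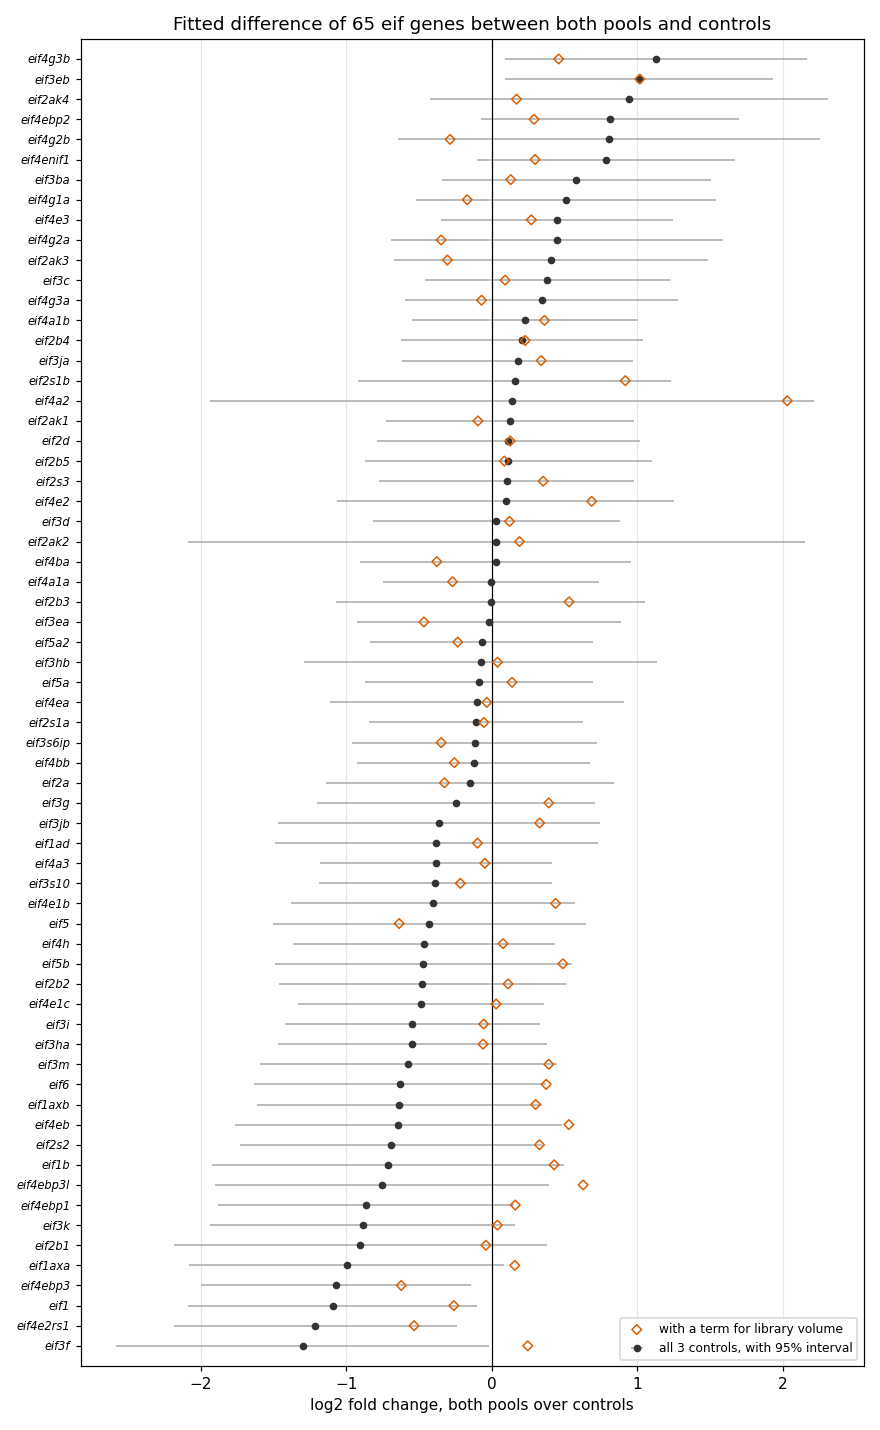
Fitted log2 fold change of both pools over the controls for 65 tested members (eif3bb, without a count in 3 libraries, is not drawn): the fit to all 3 controls with its 95% interval, and the fit with the term for library volume. For eif3eb both values are close (1.01 and 1.02), while for eif3f they lie on either side of 0 (-1.30 and 0.25).

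Among the cap-binding genes, eif4e1c, a fish paralogue of eIF4E type 1, had the highest level in every library, with 228 and 263 TPM in the pools of 10 and 25, against 378, 348 and 233 TPM in control replicates 1 to 3. The early embryo type, eif4e1b, came second in every library with 141 and 156 TPM in the pools, against 178, 117 and 86.1 TPM in the controls. Pools and controls overlapped for both genes. In the controls eif4e1c supplied 47.4 ± 3.32% of all cap-binding TPM and eif4e1b 18.5 ± 3.46% (SD, n = 3). The type 1 genes eif4eb and eif4ea were lower, at 69.4 ± 22.6 and 16.2 ± 3.88 TPM in the controls.

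In normalised counts eif4e1b had 98.6 and 102 CPM in the pools of 10 and 25, against 184, 139 and 73.9 CPM in control replicates 1 to 3. The pools sat between control replicate 3 and the others. Its log2 fold change was -0.40 (SE 0.440, edgeR adjusted p = 0.708), but 0.44 (SE 0.299) with the volume term and 0.29 on the log2(TPM + 1) scale, so no direction can be given. For eif4e1c, with 227 and 198 CPM in the pools, against 323, 363 and 208 CPM in the controls, the fitted log2 value was -0.49 (SE 0.379, edgeR adjusted p = 0.601) and 0.029 with the volume term. One pool was below every control and the other was not. Of the summed TPM of this pair, eif4e1c made up 61.9% and 62.7% in the pools, against 68%, 74.9% and 73% in the controls. These TPM shares did not overlap, and eif4e1b held a larger remainder in the pools than in the controls. In CPM the share of eif4e1c did overlap between pools and controls. Going from CPM to TPM raised the log2 difference between pools and controls by 0.59 for eif4e1b but by 0.10 for eif4e1c.

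The member with the smallest unadjusted p was eif4e2rs1, a relative of eif4e2. It had 40.2 and 55.6 CPM in the pools of 10 and 25, against 138, 126 and 69.4 CPM in control replicates 1 to 3. Both pools were below every control, and control replicate 3 was nearer to the pools than to the other controls. The log2 fold change was -1.21 (95% interval -2.19 to -0.24, SE 0.438, edgeR unadjusted p = 0.0194, adjusted p = 0.464), and -0.53 (SE 0.306) with the volume term. Its share of cap-binding TPM was 4.83% and 7.51% in the pools, against 9.93%, 9.65% and 9.96% in the controls, which lay close together. In CPM its share was also below every control in both pools, but the controls lay less close together, with control replicate 3 nearest to the pools. The gene eif4e2 encodes 4EHP, which occupies the cap without recruiting eIF4G, and had 21.6 and 16.3 CPM in the pools, against 29.5, 11.8 and 11.8 CPM in the controls. The other cap-binding gene outside the controls was eif4e3, an atypical member of the family, with 179 and 156 CPM in the pools, against 131, 98.6 and 139 CPM in the controls. Both pools were above every control by a log2 fold change of 0.45 (SE 0.358, edgeR adjusted p = 0.610). eif4eb had 59.4 and 55 CPM in the pools, against 94.9, 133 and 39.6 CPM in the controls, and eif4ea had 22.3 and 12.2 CPM, against 15.2, 22.6 and 17.7 CPM, both overlapping.

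**Figure D3:**
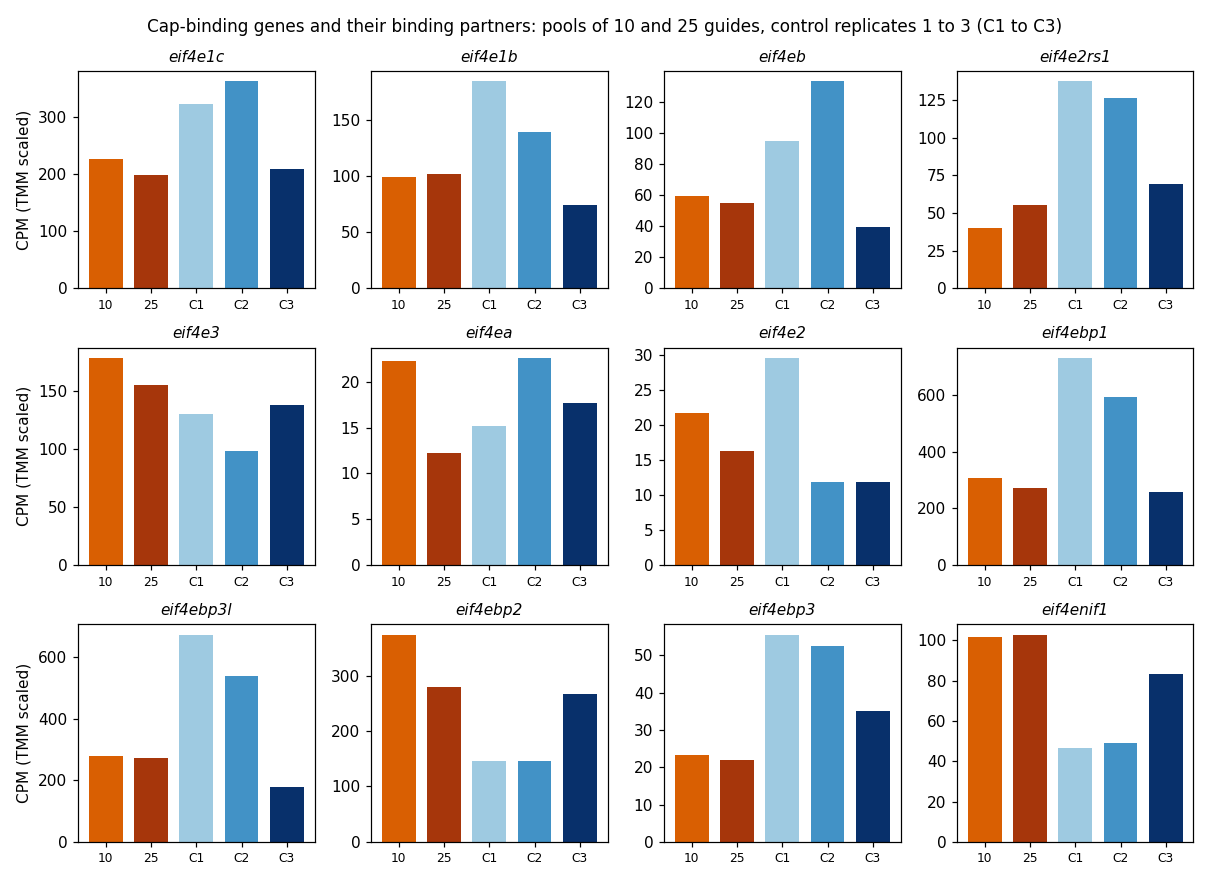
CPM of the cap-binding genes and the genes for 4E-binding proteins in the pools of 10 and 25 guides and control replicates 1 to 3; each bar is 1 library and each panel has its own axis from 0. For eif4ebp3 both pools, at 23.4 and 22 CPM, lie below every control, while for eif4ebp1 control replicate 3 lies below both pools.

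Genes for the proteins that bind eIF4E lay on different sides of the controls. eif4ebp3, a 4E-BP gene, had 23.4 and 22 CPM in the pools of 10 and 25, against 55.5, 52.5 and 35 CPM in control replicates 1 to 3. Both pools were below every control (log2 fold change -1.07, SE 0.416, edgeR unadjusted p = 0.0275, adjusted p = 0.464), and the value was -0.62 (SE 0.332) with the volume term. Its relative eif4ebp2 had 374 and 279 CPM in the pools, against 146, 146 and 267 CPM in the controls (log2 fold change 0.81, SE 0.399, edgeR adjusted p = 0.475). Both pools were above every control, with control replicate 3 next to the pool of 25. eif4enif1 encodes 4E-T, a partner of eIF4E in stored mRNA, and had 102 and 103 CPM in the pools, against 46.4, 48.8 and 83.3 CPM in the controls (log2 fold change 0.78, SE 0.399, edgeR adjusted p = 0.476). Again both pools were highest and control replicate 3 was nearest to them.

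The 4E-BP repressor genes with the highest mean TPM in the controls divided the libraries along the line of library volume, which is also that of depth. So did eif4ebp3, in the same direction, and eif4ebp2, in the opposite one. eif4ebp1 had 308 and 271 CPM in the pools of 10 and 25, against 731, 593 and 259 CPM in control replicates 1 to 3 (log2 fold change -0.87, SE 0.458, edgeR adjusted p = 0.482, and 0.16 with the volume term). eif4ebp3l had 278 and 272 CPM in the pools, against 674, 541 and 178 CPM in the controls. Its log2 fold change was -0.76 (SE 0.517), and 0.63 (SE 0.275, edgeR unadjusted p = 0.0457, adjusted p = 0.543) with the volume term. For both genes the pools and control replicate 3 stood well below control replicates 1 and 2, with control replicate 3 lowest. Summed over the 4 4E-BP genes, repressor TPM was 1.74 and 1.55 times the summed cap-binding TPM in the pools, against 1.78, 1.58 and 1.60 times in the controls. This ratio overlapped between pools and controls and spanned a narrow range.

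Scaffold genes of the eIF4G type held large differences between control libraries. Genes outside the naming rule appear in this and the next paragraphs to fill their role class, and were chosen after their values were seen. eif4g2b encodes a scaffold of the DAP5 type, which lacks the eIF4E site, and had 459 and 414 CPM in the pools of 10 and 25, against 129, 87.9 and 533 CPM in control replicates 1 to 3. The pools and control replicate 3 stood together far above the other controls. The log2 fold change was 0.81 (SE 0.652, edgeR adjusted p = 0.614), and -0.29 with the volume term. Without control replicate 3, where pools and controls differ in library volume, it was 2.004 (SE 0.247, edgeR adjusted p = 0.00176). Pools and control replicate 3 were also above the other controls for eif4g2a, with 192 and 249 CPM in the pools, against 128, 76.5 and 281 CPM in the controls, and for the classical scaffold gene eif4g1a, with 95.1 and 87.5 CPM, against 37.2, 52.7 and 103 CPM. Another scaffold gene, eif4g3b, had 49.4 and 57.2 CPM in the pools, against 16, 18.7 and 38.8 CPM in the controls. Both pools were above every control (log2 fold change 1.13, SE 0.466, edgeR unadjusted p = 0.0359, adjusted p = 0.465, and 0.46 with the volume term).

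Helicase genes of the eIF4A type overlapped between groups, except eif4a1b. The main eIF4A gene eif4a1a had 729 and 819 CPM in the pools of 10 and 25, against 755, 639.7 and 934 CPM in control replicates 1 to 3, for a log2 fold change of -0.0041 (95% interval -0.75 to 0.74, SE 0.333). Its paralogue eif4a1b had 113 and 116 CPM in the pools, against 101, 103 and 89.3 CPM in the controls, a small difference without overlap (log2 fold change 0.23, SE 0.350, edgeR adjusted p = 0.790). eif4a3, the helicase of the exon junction complex, had 248 and 272 CPM in the pools, against 415, 332 and 269 CPM in the controls, with overlap. The rare eif4a2 had 10.3 and 3.97 CPM in the pools, against 2.04, 15.4 and 1.73 CPM in the controls. It was the 1 member with both pools at least 2-fold above control replicate 3, beside 9.21% of all genes, and 0 members were at least 2-fold below it, beside 6.91%. Few counts lie behind its values, and control replicate 2 was highest.

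All 5 genes of the eIF1 and eIF1A class had a negative log2 fold change, with a median of -0.72, and a median of 0.16 with the volume term. Control replicate 3 stood at a median of -1.24 from control replicates 1 and 2 over the same genes. eif1 had 90.5 and 93.2 CPM in the pools of 10 and 25, against 205, 272 and 110.1 CPM in control replicates 1 to 3 (log2 fold change -1.09, SE 0.447, edgeR unadjusted p = 0.0342, adjusted p = 0.465, and -0.26 with the volume term). Both pools were below every control, with control replicate 3 next to them. eif1b had 551 and 323 CPM in the pools, against 1260.2, 568 and 325 CPM in the controls, which overlapped and of which replicate 1 was far above the rest. The scanning factor genes eif1axa and eif1axb had log2 fold changes of -0.999 (SE 0.488) and -0.64 (SE 0.440), and 0.16 and 0.30 with the volume term. eif1ad, at 8.37 and 8.76 CPM in the pools, against 9.70, 14.5 and 9.17 CPM in the controls, had both pools lowest by a small margin.

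The class of eIF2, the carrier of the initiator tRNA, held 6 genes, eif2a and eif2d outside eIF2 included, with a median log2 fold change of -0.0048. The alpha subunit gene eif2s1a had 391 and 366 CPM in the pools of 10 and 25, against 448, 387 and 394 CPM in control replicates 1 to 3 (log2 fold change -0.11, SE 0.331, 95% interval -0.85 to 0.62). The groups overlapped within a narrow range. The beta subunit gene eif2s2 had 72.9 and 84.7 CPM in the pools, against 161, 158 and 62.8 CPM in the controls, with control replicate 3 beside the pools. The gamma subunit gene eif2s3 had 149 and 203 CPM in the pools, against 223, 131 and 138 CPM in the controls. eif2d, for a tRNA carrier outside eIF2, had 17.7 and 18.2 CPM in the pools, against 17.2, 16.1 and 16.4 CPM in the controls. Both pools were above every control, by a log2 fold change of 0.11 (SE 0.406).

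eIF2B reloads eIF2 with GTP, and its 5 genes had a median log2 fold change of -0.0073. eif2b1, the alpha subunit gene, had 6.75 and 6.71 CPM in the pools of 10 and 25, against 11.1, 19.7 and 6.92 CPM in control replicates 1 to 3 (log2 fold change -0.90, SE 0.575, edgeR adjusted p = 0.531). Both pools were lowest, but control replicate 3 differed little from them. The highest of the class by mean TPM of the controls, eif2b5, had 35.5 and 51.6 CPM in the pools, against 54.4, 25.5 and 41 CPM in the controls, with overlap. The eIF2 kinases stop initiation under stress by phosphorylating eIF2 alpha, and pools and controls overlapped for all 4 of their genes. eif2ak1, for HRI, had 56.5 and 78 CPM in the pools, against 62.3, 51.1 and 71.8 CPM in the controls (log2 fold change 0.12, SE 0.383). eif2ak3, for PERK, had 42.3 and 53.8 CPM in the pools, against 22.5, 27.1 and 59.4 CPM in the controls, where replicate 3 was highest. The genes eif2ak4 (GCN2) and eif2ak2 (PKR) were rarer, with 8.78 and 11.1 CPM and 1.08 and 2.87 CPM in the pools, against 3.40, 3.44 and 8.83 CPM and 2.04, 2.02 and 1.73 CPM in the controls.

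Subunits of eIF3, the scaffold on the small ribosomal subunit, had 18 genes, of which 17 were tested. Their median log2 fold change was -0.24, and 0.091 with the volume term. Among members whose unadjusted p was under 0.05, eif3eb, a gene for subunit e, was the 1 for which control replicate 3 lay inside the range of the other controls. It had 26.6 and 32.3 CPM in the pools of 10 and 25, against 11.5, 17.7 and 14.5 CPM in control replicates 1 to 3, and both pools were above every control. The log2 fold change was 1.01 (95% interval 0.092 to 1.93, SE 0.414, edgeR unadjusted p = 0.0342, adjusted p = 0.465). With the volume term, which sets the pools against control replicate 3 alone, it was 1.02. Because that control lay inside the range of the other controls, the closeness of these values was largely built in and is not a second check. In TPM it stood at 41.7 and 44.6 in the pools, against 12.1, 17.9 and 18.3 in the controls. Its more abundant paralogue eif3ea had 91.7 and 96.6 CPM in the pools, against 93.4, 63.4 and 130.2 CPM in the controls (log2 fold change -0.022, SE 0.408).

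Of the 17 tested eIF3 genes, 12 had a log2 fold change below 0, and eif3ba and eif3c were among those above it. eif3ba had 137 and 165 CPM in the pools of 10 and 25, against 103, 61.8 and 138 CPM in control replicates 1 to 3. eif3c had 60.5 and 74.5 CPM in the pools, against 47.5, 44.6 and 63.4 CPM in the controls. For the eIF3 genes that follow, the pools and control replicate 3 lay below control replicates 1 and 2, by margins that differed between genes. eif3f had 28.1 and 30.2 CPM in the pools of 10 and 25, against 99.1, 91.4 and 24.6 CPM in control replicates 1 to 3 (log2 fold change -1.30, SE 0.576, edgeR unadjusted p = 0.0475, adjusted p = 0.465, and 0.25 with the volume term). The pools and control replicate 3 stood together far below the other controls. The highest of the class by mean TPM of the controls, eif3m, had 170.4 and 230.1 CPM in the pools, against 421, 319.6 and 153 CPM in the controls (log2 fold change -0.57, SE 0.460, edgeR adjusted p = 0.612, and 0.39 with the volume term). eif3i had 122 and 124 CPM in the pools, against 239, 173 and 128 CPM in the controls, and eif3ha had 64 and 66.1 CPM, against 134, 83.2 and 67.9 CPM. In both the pools were lowest with control replicate 3 close to them, and the log2 fold changes were -0.55 (SE 0.393) and -0.55 (SE 0.415). The subunit a gene, listed as eif3s10, also had both pools lowest, with 104 and 132 CPM, against 157, 169.6 and 137 CPM in the controls (log2 fold change -0.39, SE 0.360). eif3bb had no count in either pool or in control replicate 3, and 6 and 25 counts in control replicates 1 and 2, so no fold is given.

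Genes for subunit joining, eIF6 and eIF5A overlapped between pools and controls, all 5 with a negative log2 fold change, beside 53.4% of all genes. Their median was -0.43, but 0.14 with the volume term. eif6 had 337 and 337 CPM in the pools of 10 and 25, against 740.2, 567 and 260.3 CPM in control replicates 1 to 3 (log2 fold change -0.63, SE 0.451, edgeR adjusted p = 0.573, and 0.37 with the volume term). The joining GTPase gene eif5b had 61.2 and 63.6 CPM in the pools, against 100.3, 114 and 44.5 CPM in the controls. For both genes control replicate 3 was lowest and control replicates 1 and 2 highest. eif5, whose product makes eIF2 hydrolyse its GTP, had 93.2 and 94.8 CPM in the pools, against 176, 57.6 and 146 CPM in the controls. The genes for eIF5A, which relieves stalled ribosomes, were eif5a2 with 326 and 296 CPM in the pools, against 345, 268 and 366 CPM in the controls, and eif5a with 235 and 208 CPM, against 278, 227 and 201 CPM.

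Of 16 pairs of related members, both pools lay above every control in the TPM share of the gene named first for 3 pairs and below for 2. The other 11 pairs overlapped. eif1axb made up 54.3% and 54.5% of the TPM of the eIF1A pair in the pools of 10 and 25, against 48.2%, 47.2% and 49.9% in control replicates 1 to 3. eif4g3b made up 65.3% and 77.3% of its pair with eif4g3a in the pools, against 39.3%, 40.8% and 62% in the controls. The last pair above was eif4ebp3l with eif4ebp3, at 90.8% and 90.3% in the pools, against 89.9%, 88.7% and 79.5% in the controls. Below lay eif4e1c with eif4e1b, given earlier, and eif4e2rs1 with eif4e2, at 57.3% and 75.7% in the pools, against 80.00%, 89.9% and 82.2% in the controls. In CPM the shares of eif4ebp3l and of eif4e1c in their pairs overlapped between pools and controls. Reads shared by near-identical copies could be split between them by the authors' counting, so these shares are uncertain. None was tested, no background over other pairs of genes was computed, and nothing about the members is read from the number of pairs outside the controls.

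**Figure D4:**
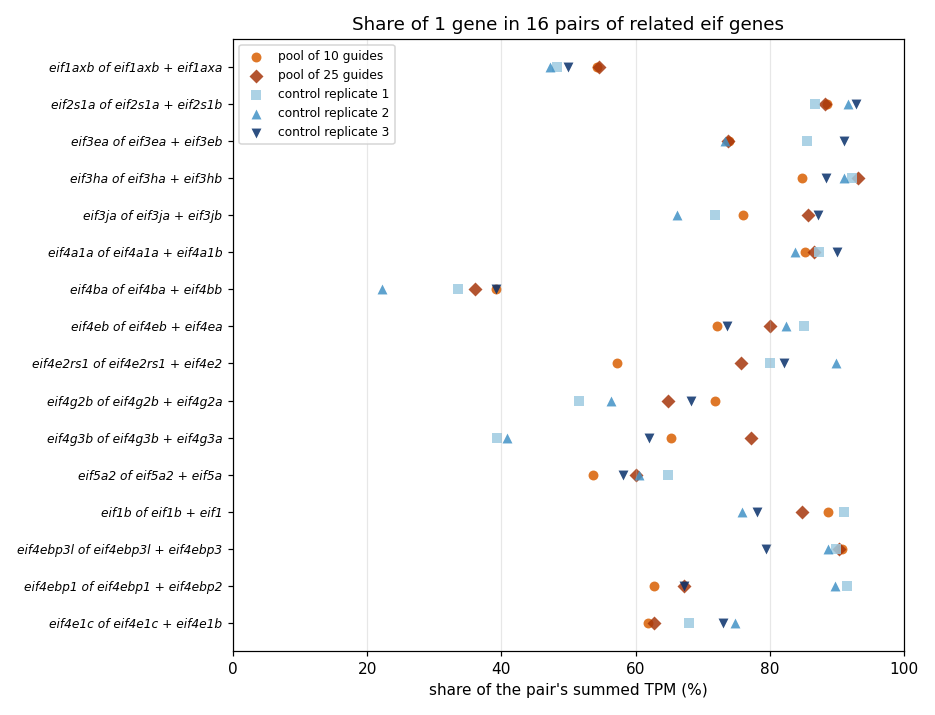
Share of the gene named first in the summed TPM of 16 pairs of related members, with 1 point per library. For eif1axb the pools, at 54.3% and 54.5%, lie above the controls, at 48.2%, 47.2% and 49.9%, and for eif4e1c they lie below them.

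Length, read from the ratio of CPM to TPM in control replicates 1 and 2, went with the split between control libraries. Across 64 members the log2 difference of control replicate 3 from control replicates 1 and 2 had a Spearman's rho of 0.68 with this ratio, and 0.56 across 13435 tested genes. Genes are not independent replicates and the points share the same libraries, so no p is given. The 16 members lower without control replicate 3 had a median of 0.949 CPM per TPM, the 8 higher ones 2.80, and 40 others 1.32. The ratio ran from 0.62 to 1.58 over the 16, from 1.77 to 4.30 over the 8, and from 0.64 to 4.37 over the 40 others. The 8 were eif4g2b, eif4g3b, eif4ebp2, eif4g2a, eif4enif1, eif4g1a, eif2ak3 and eif3ba. The 16 included eif3f, eif1, eif1axa and eif3k, but also eif4e2rs1, which had the highest ratio of the 16, at 1.58. For the pools with the volume term, rho was -0.19 across members and -0.0085 across all genes. The part of length in single members was not tested.

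**Figure D5:**
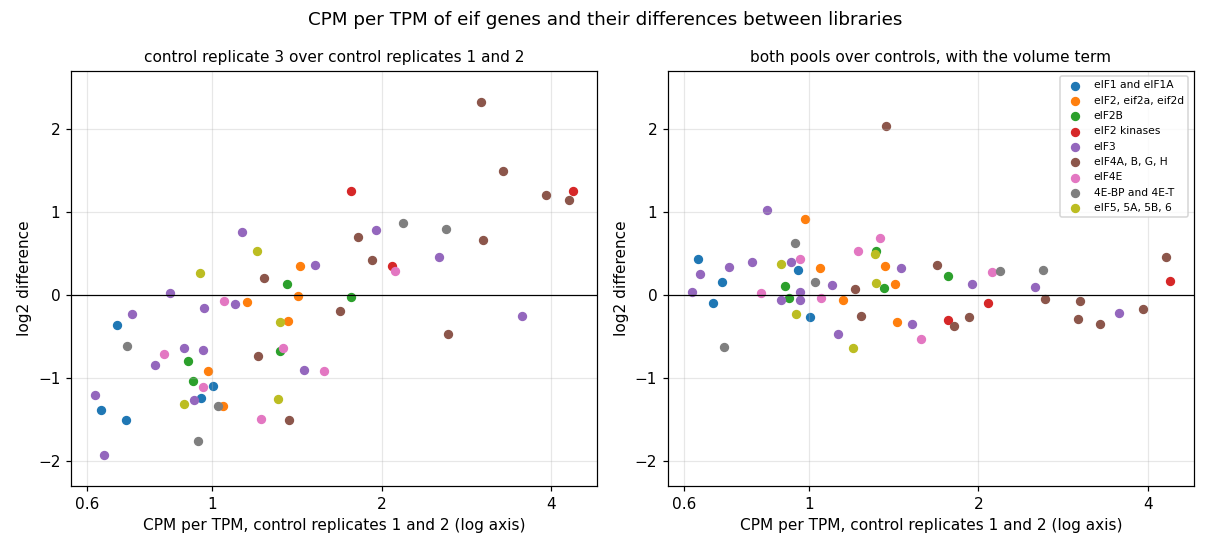
CPM per TPM of 64 members in control replicates 1 and 2 (log axis) against a log2 difference, with 1 point per gene: control replicate 3 over control replicates 1 and 2 in one panel, both pools over controls with the volume term in the other. Members with a higher ratio lie higher in the panel of control replicate 3 (rho 0.68) and show little order in the other (rho -0.19).

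Deposited TPM and counts had different centres. Going to TPM, the log2 difference between pools and controls was higher by a median of 0.48 over the members and 0.43 over all tested genes. It moved most for eif2b4, an eIF2B subunit gene, with 59.2 and 66 TPM in the pools of 10 and 25, against 30.6, 19.1 and 37 TPM in control replicates 1 to 3, but 56.3 and 57.3 CPM in the pools, against 57.7, 41.8 and 48.5 CPM in the controls. eif3ja, for a loosely bound eIF3 subunit, had 439 and 227 TPM in the pools, against 111, 120.2 and 391 TPM in the controls, but 109.5 and 96.8 CPM, against 87.9, 104 and 81.5 CPM. For eif3ja the high TPM of control replicate 3 had no counterpart in its gene counts, where that library was lowest. The pool of 10 was highest in both TPM and CPM, but in CPM by a small margin.

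Each pool alone gave no call. For the pool of 10, edgeR called 0 of 66 members, beside 0% of all genes, with a smallest adjusted p of 0.951. With unadjusted p, 0 members were lower at 0.05, beside 1.8% of all genes, and 0 higher, beside 1.42%. For the pool of 25 it called 0 members, beside 0% of all genes, with a smallest adjusted p of 0.913. With unadjusted p, 0 were lower at 0.05, beside 1.84%, and 0 higher, beside 1.22%. The members' median log2 fold change was -0.16 for the smaller pool and -0.17 for the larger. Each pool is 1 library in these fits, assumed to vary like the controls.

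Between the 2 pools edgeR called 0 of 66 members in the pool of 25 against the pool of 10, beside 0% of all genes. With unadjusted p, 0 were lower at 0.05, beside 0.334%, and 0 higher, beside 0.456%. The median absolute log2 fold change was 0.17 over the members and 0.37 over all genes, most of which have lower levels. The widest gap among members above 10 CPM in both pools was in eif3jb, with 35 CPM in the pool of 25 and 80.6 CPM in the pool of 10 (log2 fold change -1.20, SE 0.832, 95% interval -3.04 to 0.64).

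Other genes of translation were read from the same fit of both pools, and edgeR called 0 genes of each list. Of 25 tested partners of poly(A) and eIF4E, 1 was lower and 1 higher by unadjusted p at 0.05, beside 6.66% and 3.97% of all genes, with a median log2 fold change of 0.20. The lower was paip2b, whose product holds back poly(A)-binding protein, with 69.8 and 63.1 CPM in the pools of 10 and 25, against 146, 162 and 100.2 CPM in control replicates 1 to 3. The higher was larp1, which binds mRNAs of ribosomal proteins, with 35.4 and 38.2 CPM in the pools, against 8.76, 8.99 and 22.5 CPM in the controls. Both genes had groups without overlap, and control replicate 3 was nearest to the pools. Of 15 kinase genes, 0 were lower (6.66% of all genes) and 2 higher (3.97%) at that level, with a median of 0.37. rps6ka1, a ribosomal S6 kinase gene, had 87.3 and 67.3 CPM in the pools, against 21.2, 19.8 and 30.6 CPM in the controls (log2 fold change 1.70, SE 0.397, edgeR adjusted p = 0.464, and 1.33 with the volume term). DESeq2 gave rps6ka1 an adjusted p of 0.0262, its 1 call among the genes of these lists. mknk2b, for a kinase of eIF4E, had 90.6 and 127 CPM in the pools, against 42.9, 51.4 and 76 CPM in the controls. Both kinase genes were above every control in both pools.

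Of 9 mitochondrial factors, 1 was lower (6.66% of all genes) and 1 higher (3.97%) by unadjusted p at 0.05, with a median log2 fold change of -0.065. mtif2, a mitochondrial initiation factor gene, had 18.2 and 22.6 CPM in the pools of 10 and 25, against 31.1, 67.9 and 49.9 CPM in control replicates 1 to 3 (log2 fold change -1.28, SE 0.462, edgeR adjusted p = 0.464, and -1.29 with the volume term). gfm2, for a factor that recycles mitochondrial ribosomes, had 19.99 and 19.7 CPM in the pools, against 7.74, 4.79 and 10.04 CPM in the controls. Neither overlapped between groups. Of 16 elongation and termination genes 0 were lower or higher at that level, with a median of -0.0065, and the smallest p values were of hbs1l (0.78) and eef1da (-0.77, log2 fold changes). Of 4 genes for factors of dormant egg ribosomes 0 were lower or higher, with a median of 0.0020. Of these, the first entry under the symbol dap1b had 116 and 112 CPM in the pools, against 362, 323 and 89.5 CPM in the controls, and serbp1b had 53.1 and 49.7 CPM, against 45.4, 38.8 and 46.9 CPM.

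Cytosolic ribosomal protein genes had 38 of 80 lower (6.66% of all genes) and 0 higher (3.97%) by unadjusted p at 0.05, with a median log2 fold change of -1.12. Their median was -0.024 with the volume term, and -1.46 for control replicate 3 against control replicates 1 and 2. The smallest p values were of rps15a (-1.69, SE 0.548) and rpl18 (-1.57, SE 0.514, log2 fold changes). The initiation factor genes, at a median of -0.11, thus lay near the median of all genes in the fit where the ribosomal protein genes lay far below it.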

How the data were processed

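RNA from 5 whole-embryo zebrafish libraries was used as deposited: the authors' counts per gene and their TPM per gene. Per the submitters' processing notes, bcl2fastq 2.20 was used and the build was danRer11; the sources used here name no aligner or counter. Library volumes are as per the labels' protocols. Rows that name no gene, 26.7% to 53.8% of each library, were left out of library sizes. Counts were filtered with filterByExpr (3 groups, minimum count 10) and tested in R 4.3.3 with edgeR 4.0.16 (TMM, quasi-likelihood test, Benjamini-Hochberg adjustment over 16445 genes, threshold 0.05), with both pools as 1 group (3 residual degrees of freedom) or each pool alone (2). DESeq2 1.42.0 and limma 3.58.1 on log2(TPM + 1) were alternatives, with another pseudocount (0.1), scalings, filters, a term for library volume and left-out libraries. The script was tested on simulated counts. Log2 differences of control replicate 3 used a pseudocount of 0.5 CPM, and CPM per TPM needed 50 counts.

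Members and gene lists were chosen with earlier results of these data known. Named members were all eIF4E genes, the highest by mean control TPM of each role, and the 6 lowest and 6 highest with both pools outside the controls and at least 10 CPM; for each list, the 2 genes with the smallest p. Depth limits the precision of rare members. No sequence is printed.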

Additional observations from a re-analysis of the deposited data

How the results depend on the processing

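Across the alternatives 95 values of the comparisons stayed close to the main fit, 20 moved away and 5 turned sign. Counts were close within a set fold of the main fit. The members' median was close when it differed by less than its SD between controls (0.17). For single genes 296 values kept their direction and side of the threshold, and 42 turned sign. Members called stayed at 0 under every alternative except without control replicate 3. Leaving out 1 library at a time, genes called lower ran from 0 to 2180 and higher from 0 to 2030, members called lower from 0 to 16 and higher from 0 to 8, members with both pools below every control from 8 to 28 and above from 9 to 15, and the members' median from -0.17 to -0.038. The calls came without control replicate 3 alone; 12 named members then passed the threshold. Without a filter 99 genes were called lower and 38 higher, with DESeq2 67 and 39, with limma on TPM 2 lower (pseudocount 1) or 1 (pseudocount 0.1), and with the volume term 3 and 7. With library size only, 5 members lay below every control. The members' median turned to 0.12 with library size only (0.14 over all genes), 0.35 and 0.37 with limma on TPM (pseudocounts 1 and 0.1) and 0.35 without its filter (0.32, 0.41 and 0.15 over all genes), and 0.12 with the volume term. The cause was not tested.

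Signs of single uncalled genes also turned. With library size only the log2 fold changes were 0.12 for eif4ea, 0.11 for eif2s1a and 0.19 for eif4a1a. With limma on log2(TPM + 1), with or without the filter, they were 0.29 for eif4e1b, 0.35 for eif4ea, 0.45 for eif2s1a, 0.0071 for eif3m, 0.57 for eif4a1a, 0.013 for eif6 and 0.0068 for eif3ha. On log2(TPM + 0.1) they were 0.29, 0.37, 0.45, 0.0071, 0.57, 0.013 and 0.0072 for the same genes. With the volume term they were 0.029 for eif4e1c, 0.53 for eif4eb, 0.44 for eif4e1b, -0.096 for eif2ak1, 0.39 for eif3m, 0.16 for eif4ebp1, 0.37 for eif6 and 0.43 for eif1b. Leaving out 1 library gave -0.14 to 0.68 for eif4e2, -0.60 to 0.25 for eif4ea, -0.20 to 0.39 for eif2b5, -0.13 to 0.14 for eif4a1a and -0.14 to 0.34 for eif2ak1. A filter by pools and controls, chosen after seeing the data, left a median of -0.11. No paired analysis was possible because the pools carry no replicate number that matches a control.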
